A study of Mus musculus with 47 samples.

Results

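The 10 genes described here encode heat shock proteins and their co-chaperones: Hsp90ab1, Hsp90aa1, Hspa8, Hspa1a, Hspa1b, Hspa4, Hsph1, Dnaja1, Dnaja4 and Dnajb1. They were chosen by symbol, with measured values of the same libraries known, so their siTdg and phase values in those libraries are given as a description, with no test. All 10 symbols were found, among 24507 genes in the tables of unsorted cells and embryoid bodies and 26182 in those of sorted cells. The cells were E14Tg2A mouse embryonic stem cells (ESCs) or embryoid bodies (EBs), which are aggregates of ESCs left to differentiate. Per the labels, all ESCs were grown without serum in N2B27 with the MEK inhibitor PD0325901, the GSK3 inhibitor CHIR99021 and LIF. The groups were siTdg and siC, a small interfering RNA against Tdg (thymine DNA glycosylase, which removes oxidised methylcytosine from DNA) and the control one. They were compared in unsorted ESCs at 48 h and at 96 h, in ESCs sorted into G2M and G1, and in EBs of day 11, with 2 libraries in each of 10 groups. The labels name 1 cell line and do not say whether replicates were separate cultures, so the spread between them may be technical. RNA was sequenced after depletion of ribosomal RNA. A level is given in RPKM, reads per kilobase of gene scaled by a factor set for each library. That factor is not the total of reads. The 20 libraries held 20818174 to 41433232 reads.

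Heat shock proteins are chaperones: they bind proteins that are not folded and let them fold with the use of ATP. HSP70 proteins take clients from J proteins, which stimulate ATP hydrolysis, and release them with the help of HSP110 exchange factors. HSP90 proteins then mature a set of clients, among them kinases, steroid receptors and p53. Hspa8 and Hsp90ab1 are made in nearly all cells without stress, and ESCs hold much of both. Hspa1a and Hspa1b are induced by heat through HSF1, which binds repeats of GAA and its complement TTC.

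The promoters that hold such repeats are shown first, since HSF1 binding is what the inducible members are known for. The windows are the 250 bases before an annotated start, 5′ to 3′ on the gene's strand, from RefSeq on build GRCm38.p6. Capitals mark a 2-unit heat shock element, GAANNTTC or TTCNNGAA, searched on both strands.
Hspa1b: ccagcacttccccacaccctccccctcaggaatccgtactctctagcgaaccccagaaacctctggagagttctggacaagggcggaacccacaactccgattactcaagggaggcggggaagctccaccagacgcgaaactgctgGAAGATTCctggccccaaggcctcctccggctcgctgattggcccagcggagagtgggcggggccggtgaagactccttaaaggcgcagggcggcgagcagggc
Hspa1a: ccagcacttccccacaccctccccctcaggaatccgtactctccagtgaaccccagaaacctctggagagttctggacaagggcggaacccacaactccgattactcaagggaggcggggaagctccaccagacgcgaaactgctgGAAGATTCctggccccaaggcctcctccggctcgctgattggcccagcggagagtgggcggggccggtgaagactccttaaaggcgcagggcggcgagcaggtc
Hsph1: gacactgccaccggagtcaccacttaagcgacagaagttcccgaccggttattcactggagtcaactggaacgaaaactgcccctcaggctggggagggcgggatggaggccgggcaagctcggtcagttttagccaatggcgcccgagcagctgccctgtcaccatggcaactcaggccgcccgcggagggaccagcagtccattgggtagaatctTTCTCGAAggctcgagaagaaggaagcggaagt
Dnaja4: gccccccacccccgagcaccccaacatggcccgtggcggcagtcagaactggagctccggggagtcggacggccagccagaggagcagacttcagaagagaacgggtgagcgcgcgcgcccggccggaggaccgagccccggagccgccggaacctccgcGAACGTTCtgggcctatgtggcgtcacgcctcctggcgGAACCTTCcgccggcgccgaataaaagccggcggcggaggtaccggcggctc
Dnaja1: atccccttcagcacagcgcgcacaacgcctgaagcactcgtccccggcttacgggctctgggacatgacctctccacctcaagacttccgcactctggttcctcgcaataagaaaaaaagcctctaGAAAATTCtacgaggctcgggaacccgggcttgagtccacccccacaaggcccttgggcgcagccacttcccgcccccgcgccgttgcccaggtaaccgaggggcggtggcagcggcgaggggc
They lie at chr17:34959239-34959488 (minus strand) for Hspa1b, chr17:34972157-34972406 (minus) for Hspa1a, chr5:149636337-149636586 (minus) for Hsph1, chr9:54699309-54699558 (plus) for Dnaja4 and chr4:40722218-40722467 (plus) for Dnaja1. The element began 104 bases before the start in Hspa1b and in Hspa1a, 33 in Hsph1, 90 and 52 in Dnaja4 and 124 in Dnaja1. From another annotated start of Hsph1 it began 54 bases before. Windows of Dnaja1 and Dnaja4 at other starts, not shown, held no element. The Hspa1b and Hspa1a windows differed at 3 of 250 bases (98.8% identical, aligned without gaps). Of the 10 genes 7 were in the promoter table, with 12 windows, and Hsp90ab1, Hsp90aa1 and Hspa8 were not. Of the 7, 5 held the 2-unit element in at least 1 window. By window, 6 of the 12 held it, against 12.8% of all 32851 windows. A 3-unit heat shock element, with a further unit in the same spacing, was in 0 of the 7 and in 0.46% of all windows. A CCAAT box (CCAAT or ATTGG, both strands) was in at least 1 window of Hspa1a, Hspa1b, Hsph1, Dnaja1 and Dnajb1. By window, 7 of the 12 held it, against 33.8% of all windows. TATAAA, on either strand, was in none of the 12 windows and in 12.4% of all. A match is only a match of letters, and some genes have several windows. These can overlap and hold the same match, as the windows of Hsph1 do. Counts by window thus hold some matches more than once.

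The label of the siRNA was checked on its target. Tdg stood at 7.34 and 13.2 RPKM in siTdg cells at 48 h, against 46.0 and 43.4 RPKM in siC cells. In sorted G1 cells it was 9.64 and 7.53 RPKM with siTdg and 54.8 and 59.6 RPKM with siC, and in sorted G2M cells 12.3 and 8.63 RPKM with siTdg and 61.6 and 63.1 RPKM with siC. At 96 h siTdg was the lower in both same-numbered pairs but the groups overlapped, at 28.2 and 40.3 RPKM with siTdg and 35.8 and 46.0 RPKM with siC. EBs had no lower Tdg, with 37.3 and 43.7 RPKM after siTdg and 35.1 and 38.5 RPKM after siC. The 7 ESC markers, none of them at 0, summed to 1950 to 2832 RPKM in the 16 ESC libraries and to 12.0 to 25.2 RPKM in the 4 EB libraries. The 7 G2/M markers summed to 1555 and 1536 RPKM in siTdg G2M cells and 1537 and 1450 RPKM in siC G2M cells, against 659, 833, 670 and 744 RPKM in the 4 G1 libraries.

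Hsp90ab1, the constitutive cytosolic HSP90 (HSP90 beta), was lower in siTdg ESCs at 48 h. Its level was 1870.5 and 2088 RPKM in siTdg cells, against 2957 and 2783 RPKM in siC cells. Both siTdg libraries lay below both siC libraries. The group means were 1979 ± 154 RPKM with siTdg and 2870.0 ± 124 RPKM with siC (SD, n = 2 each), and the log2 difference of siTdg minus siC was -0.54 with a standard error of 0.23 in limma. The authors' deposited table gave the same difference as -0.54 with a standard error of 0.081. Same-numbered libraries gave siTdg over siC ratios of 0.632 and 0.750.

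At 96 h the Hsp90ab1 groups overlapped, with 2776 and 3295 RPKM in siTdg cells and 2836 and 3407 RPKM in siC cells. In sorted G1 cells the levels were 2789 and 3338 RPKM with siTdg and 2769 and 2869 RPKM with siC. In sorted G2M cells they were 2869 and 3097 RPKM with siTdg and 2839.7 and 2979.9 RPKM with siC. The 2 siTdg libraries of 48 h were the lowest of the 16 ESC libraries. EBs held 1066 and 1329.9 RPKM after siTdg and 947 and 1042 RPKM after siC, and there both siTdg libraries were the higher. In bulk RNA fewer cells that make a gene and less RNA per cell cannot be told apart.

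Hsp90aa1, the stress-inducible HSP90 (HSP90 alpha), did not share the 48 h difference. It stood at 2813 and 2753 RPKM in siTdg cells at 48 h, against 2668 and 2859 RPKM in siC cells, and the log2 difference was 0.01. The 2 isoforms can be set against each other within a library. The RPKM of Hsp90ab1 over that of Hsp90aa1 was 0.665 and 0.758 in siTdg cells at 48 h and 1.11 and 0.973 in siC cells at 48 h. In the 12 other ESC libraries it lay between 1.13 and 1.41, so Hsp90aa1 was the higher isoform in 3 of the 4 libraries of 48 h and in none of those 12. In EBs it was 3.50 and 6.67 after siTdg and 3.71 and 7.43 after siC.

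**Figure D1:**
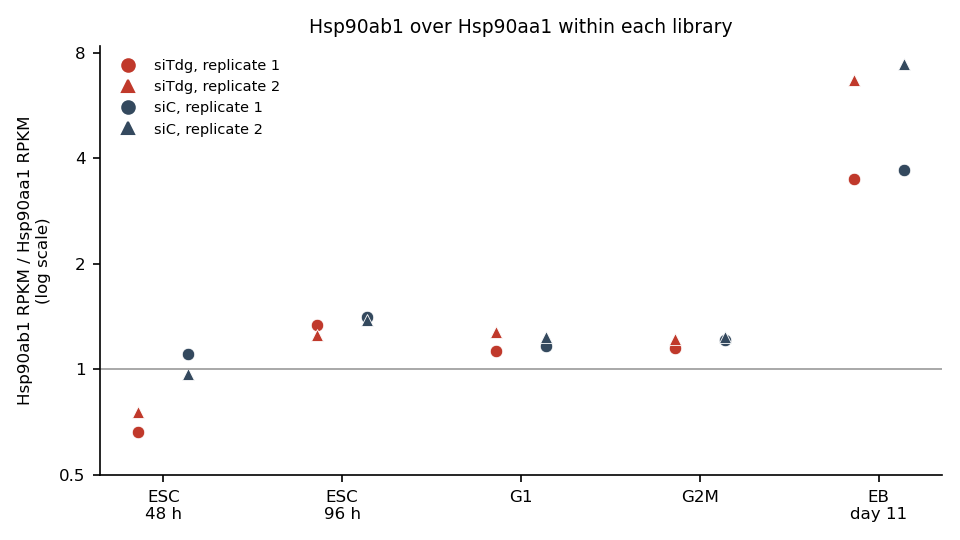
The RPKM of Hsp90ab1 divided by that of Hsp90aa1 in each of the 20 libraries, on a log axis, with siTdg left of siC in each setting. The siTdg libraries of 48 h lie lowest, at 0.665 and 0.758, and the 4 EB libraries highest, from 3.50 to 7.43.

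Of the other levels of Hsp90aa1, those at 96 h were 2074 and 2623 RPKM with siTdg and 2005 and 2465 RPKM with siC. Sorted G1 cells had 2470.2 and 2609 RPKM with siTdg and 2377 and 2318 RPKM with siC, and sorted G2M cells 2500.1 and 2541 RPKM with siTdg and 2347 and 2406 RPKM with siC. In each phase both siTdg libraries were above both siC libraries, by 0.11 (G1) and 0.08 (G2M) on the log2 scale. Over all genes tested in sorted cells, 11.6% in G1 and 14.5% in G2M had both siTdg libraries above both siC libraries. EBs held 304 and 199.5 RPKM after siTdg and 255 and 140.2 RPKM after siC, and there the number of the replicate separated the libraries more than the siRNA did.

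Hspa8, the constitutive HSP70 (HSC70), was the member with the highest median in unsorted ESCs. It held 3410.1 and 3123 RPKM in siTdg cells at 48 h, against 3386 and 2796 RPKM in siC cells, and 2809 and 4249 RPKM in siTdg cells at 96 h, against 2769.9 and 4050.1 RPKM in siC cells. The groups overlapped at both times. In sorted G1 cells it was 2517 and 3913 RPKM with siTdg and 2484 and 2896 RPKM with siC, and in G2M cells 2991 and 3852 RPKM with siTdg and 3007 and 3196 RPKM with siC. In EBs it stood at 1053 and 2683 RPKM after siTdg and 945 and 2293 RPKM after siC, so replicate 2 was 2.55 times replicate 1 after siTdg and 2.43 times after siC. The summed RPKM of replicate 2 was higher as well, and as shares of it (ppm of summed RPKM) Hspa8 stood at 2833 and 3284 ppm after siTdg and 2777 and 2626 ppm after siC.

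Hspa1a and Hspa1b, the heat-inducible HSP70 pair, were near the low end. Their sequences are nearly identical, so reads may have been shared between them or lost, and how the counting treated them is not given in the sources used here. Hspa1a was 1.03 and 0.80 RPKM in siTdg cells at 48 h, against 1.57 and 0.88 RPKM in siC cells, and the groups overlapped. Hspa1b was 1.04 and 0.97 RPKM in siTdg cells at 48 h, against 1.93 and 1.16 RPKM in siC cells, so both siTdg libraries lay below both siC libraries, with a log2 difference of -0.42. Hspa1b rested on 78 to 410 recovered reads per ESC library and Hspa1a on 63 to 295. Hsp90ab1 and Hspa1b were the 2 of 10 members with both siTdg libraries below both siC libraries at 48 h, where 10.1% of 12190 genes had that order, and 0 of 10 had the opposite order, against 8.71% of all genes.

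At 96 h Hspa1b was 1.05 and 1.76 RPKM with siTdg and 0.95 and 1.61 RPKM with siC. Hspa1a was 0.78 and 0.97 RPKM with siTdg and 1.00 and 1.14 RPKM with siC, and at that time both siTdg libraries were the lower. Sorted cells held more of both: in G1, Hspa1b stood at 5.22 and 4.08 RPKM with siTdg and 4.38 and 2.49 RPKM with siC. In G2M it was 4.19 and 4.13 RPKM with siTdg and 4.38 and 2.58 RPKM with siC. The phases overlapped in both siRNA groups, and replicate 1 was the higher in all 4 sorted groups. Hspa1a was also higher in replicate 1 of every sorted group, at 3.90 and 2.94 RPKM in siTdg G1 cells and 3.02 and 1.99 RPKM in siC G1 cells, and at 3.14 and 2.51 RPKM in siTdg G2M cells and 3.09 and 2.05 RPKM in siC G2M cells. Hspa1b over Hspa1a lay between 0.947 and 1.81 in the 16 ESC libraries. The RPKM of Hspa8 was 966 to 1771 times the sum of the pair in unsorted ESCs and 276 to 689.8 times in sorted ones.

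**Figure D2:**
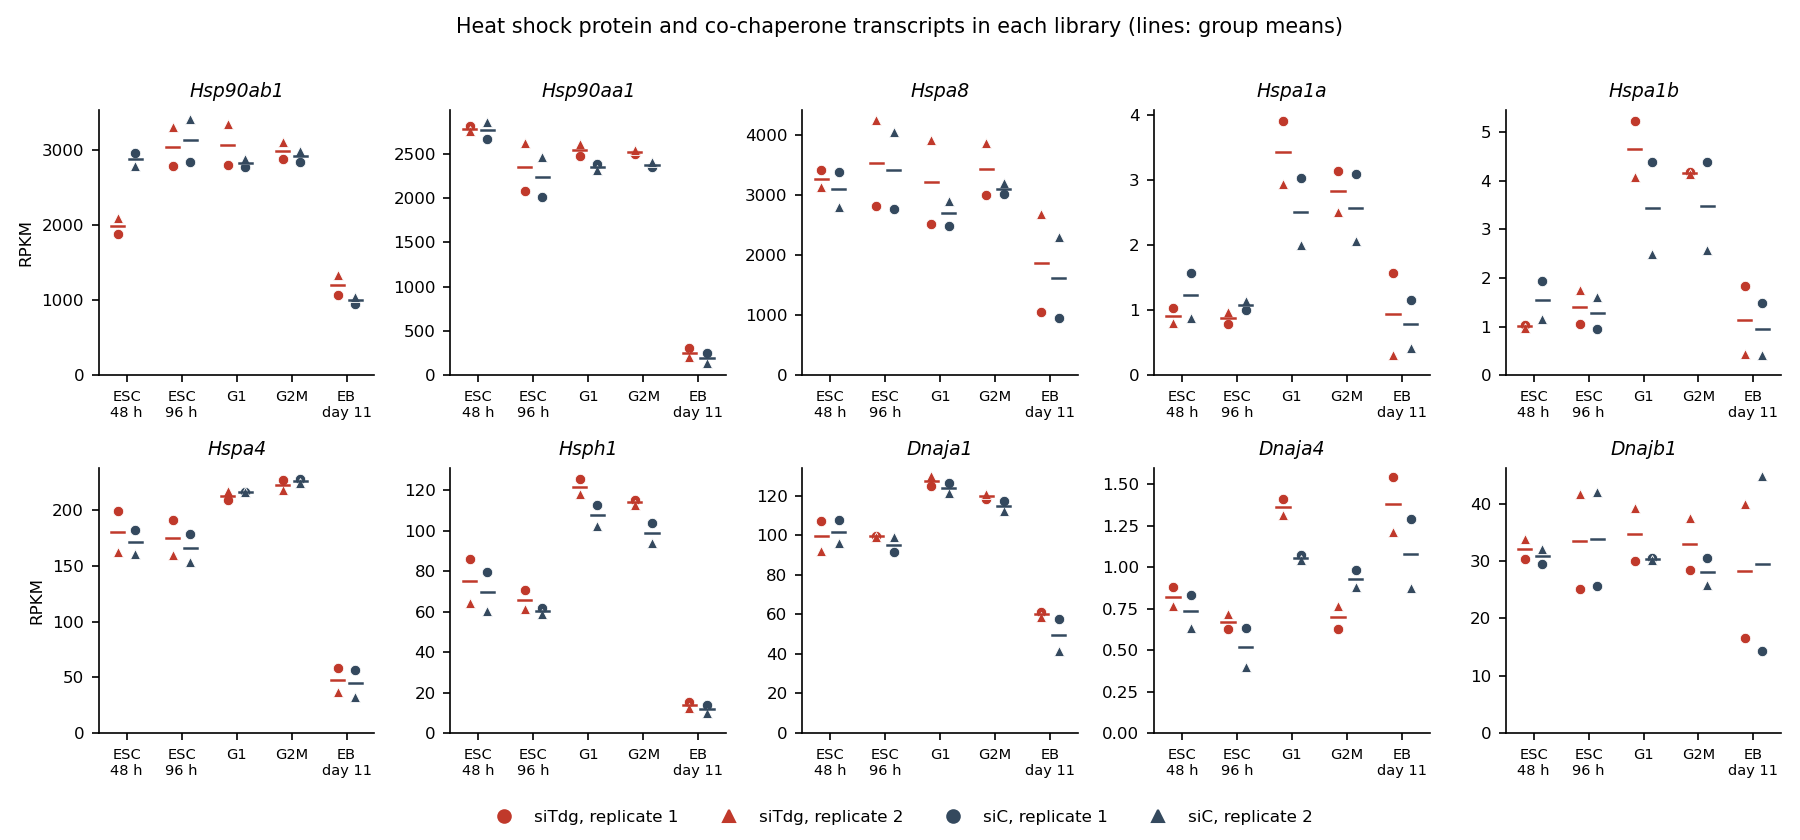
RPKM of each of the 10 genes in each of the 20 libraries, 1 panel per gene, with siTdg (red) left of siC (dark) in each setting; circles are replicate 1, triangles replicate 2 and lines the mean of 2. Hsp90ab1 at 48 h shows siTdg at 1870.5 and 2088 RPKM below siC at 2957 and 2783 RPKM, and Hsp90aa1, Hspa4 and Hsph1 are lowest in EBs.

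Among the HSP110 exchange factors, Hspa4 (APG-2) overlapped between the siRNA groups in all 5 settings. It held 199.0 and 162.3 RPKM in siTdg cells at 48 h, against 182.4 and 160.9 RPKM in siC cells, and 191.1 and 159.4 RPKM in siTdg cells at 96 h, against 178.7 and 153.4 RPKM in siC cells. In sorted G1 cells the values were 209.1 and 216.8 RPKM with siTdg and 216.7 and 216.6 RPKM with siC, and in G2M cells 227.1 and 217.9 RPKM with siTdg and 228.4 and 224.0 RPKM with siC. Within each siRNA group both G2M libraries were above both G1 libraries. Hspa4 in EBs was 58.6 and 36.4 RPKM after siTdg and 56.9 and 32.4 RPKM after siC.

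Hsph1 (HSP105), the heat-inducible exchange factor, was the one member higher with siTdg in each of the 10 same-numbered pairs. It held 86.2 and 64.5 RPKM in siTdg cells at 48 h, against 79.5 and 60.2 RPKM in siC cells, and 70.8 and 61.1 RPKM in siTdg cells at 96 h, against 62.0 and 59.0 RPKM in siC cells. In sorted G1 cells it was 125.5 and 118.1 RPKM with siTdg and 112.9 and 102.5 RPKM with siC, and in G2M cells 115.4 and 112.7 RPKM with siTdg and 103.9 and 94.1 RPKM with siC. In both phases both siTdg libraries were above both siC libraries, and in unsorted ESCs the groups overlapped at both times. EBs had 15.5 and 12.3 RPKM after siTdg and 14.1 and 9.96 RPKM after siC. The ratios of siTdg to siC ran from 1.04 to 1.24, with a median of 1.11. Of 10561 genes with all 10 ratios, 1.16% were higher in every pair and 0.862% lower in every pair. With the libraries scaled by summed RPKM or by quantiles, 9 of the 10 Hsph1 ratios were above 1, and by median ratio 10, settings chosen after the data were seen.

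**Figure D3:**
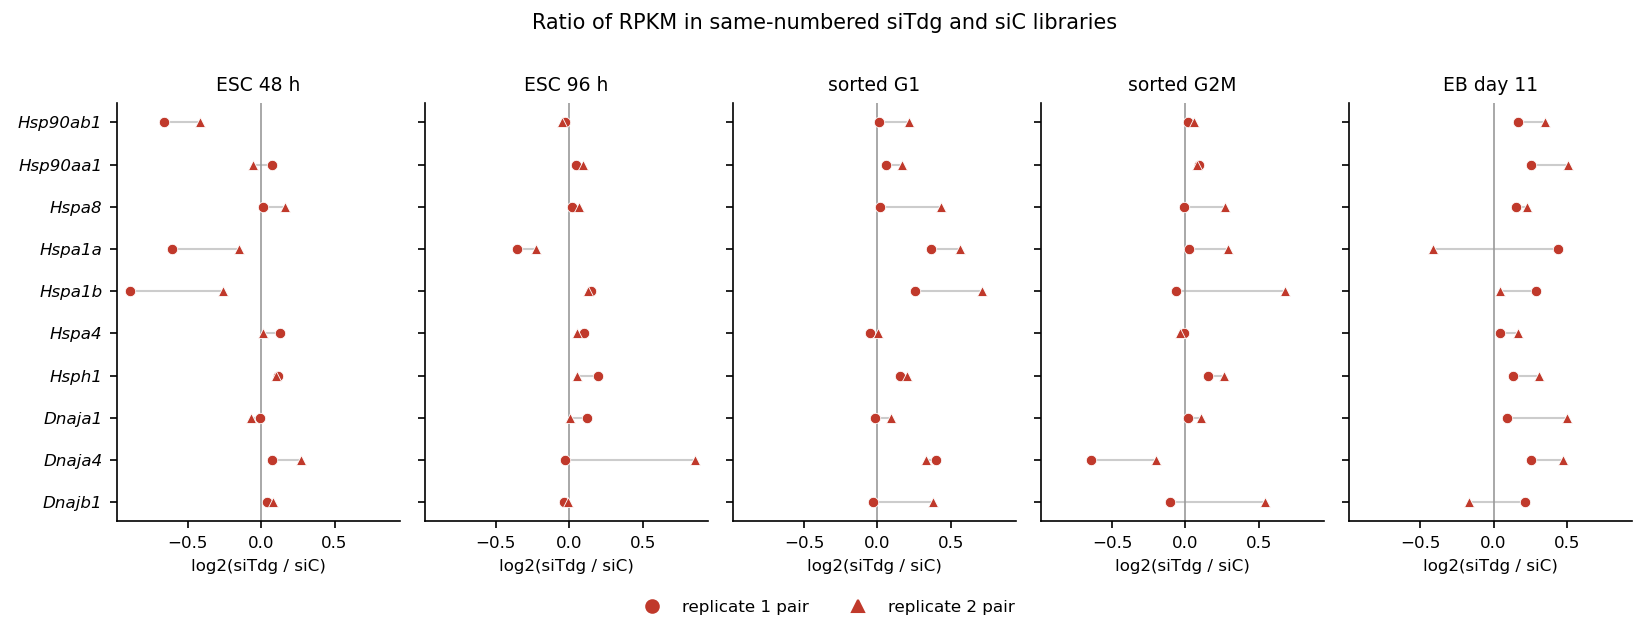
log2 ratio of siTdg over siC RPKM for same-numbered libraries, for each of the 10 genes in 5 settings; 0 means equal levels. Hsp90ab1 at 48 h is the abundant gene farthest from 0 (ratios of 0.632 and 0.750), and Hsph1 lies above 0 in all 10 pairs.

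Of the J proteins, Dnaja1 (HDJ2), a farnesylated partner of HSC70, was close in both siRNA groups in ESCs. It held 107.2 and 91.8 RPKM in siTdg cells at 48 h, against 107.6 and 96.2 RPKM in siC cells. At 96 h it was 99.6 and 99.4 RPKM with siTdg and 91.5 and 99.1 RPKM with siC, in sorted G1 cells 125.1 and 129.8 RPKM with siTdg and 126.6 and 121.5 RPKM with siC, and in sorted G2M cells 118.6 and 120.9 RPKM with siTdg and 117.3 and 112.3 RPKM with siC. G2M was the lower phase in both siRNA groups. In EBs Dnaja1 was 61.4 and 58.6 RPKM after siTdg and 57.7 and 41.3 RPKM after siC, so both siTdg libraries were the higher.

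Dnajb1 (HSP40), the heat-inducible J protein, differed more between replicate numbers than between siRNAs at 96 h and in EBs. It held 30.3 and 33.9 RPKM in siTdg cells at 48 h, against 29.5 and 32.1 RPKM in siC cells, and 25.1 and 41.7 RPKM in siTdg cells at 96 h, against 25.7 and 42.0 RPKM in siC cells. In sorted G1 cells it was 30.0 and 39.3 RPKM with siTdg and 30.6 and 30.1 RPKM with siC, and in G2M cells 28.4 and 37.5 RPKM with siTdg and 30.5 and 25.7 RPKM with siC. The groups overlapped in all 4 ESC settings. EBs had 16.6 and 39.9 RPKM after siTdg and 14.3 and 44.8 RPKM after siC.

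Dnaja4, a J protein of the cytosol, was low throughout, and its values rest on 34 to 120 recovered reads per ESC library. At 48 h it was 0.88 and 0.77 RPKM in siTdg cells and 0.83 and 0.64 RPKM in siC cells, and at 96 h 0.62 and 0.72 RPKM with siTdg and 0.64 and 0.40 RPKM with siC. In sorted cells its siTdg values went opposite ways by phase. In G1 it was 1.41 and 1.31 RPKM with siTdg and 1.07 and 1.04 RPKM with siC. In G2M it was 0.63 and 0.77 RPKM with siTdg and 0.98 and 0.88 RPKM with siC. Both G1 siTdg libraries were above both siC libraries, and both G2M siTdg libraries were below. EBs had 1.54 and 1.21 RPKM after siTdg and 1.29 and 0.87 RPKM after siC.

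Across the 10 genes the siTdg differences were small at the median. The median log2 difference of siTdg minus siC over the 10 genes was 0.03 at 48 h, 0.07 at 96 h, 0.18 in G1, 0.11 in G2M and 0.20 in EBs. Leaving out 1 library moved these medians to between -0.0890 and 0.0504 at 48 h, -0.13 and 0.16 at 96 h, 0.0429 and 0.22 in G1, 0.0321 and 0.0935 in G2M and 0.0143 and 0.47 in EBs, so at 48 h and 96 h they took either sign. Quantile scaling gave 0.0188 at 48 h, 0.0133 at 96 h, 0.0858 in G1, 0.0182 in G2M and 0.15 in EBs. Over all genes tested the medians were -0.01 at 48 h, 0.00 at 96 h and in G1, 0.01 in G2M and 0.02 in EBs. At 96 h 1 gene (Dnaja1) had both siTdg libraries above both siC libraries and 1 (Hspa1a) both below, where 4.56% and 4.46% of all genes did. In G1 it was 3 above (Hsp90aa1, Hsph1 and Dnaja4) and 0 below, against 11.6% and 14.1% of all genes. In G2M it was 3 above and 1 below, against 14.5% and 10.5%, and in EBs 2 above and 0 below, against 5.17% and 4.13%. In limma no member had an adjusted p under 0.05 in any of the 5 comparisons, and among all genes 0 did at 48 h, at 96 h and in EBs, 0.00802% (1 gene) in G1 and 0.00802% (1 gene) in G2M; no member had an unadjusted p under 0.05, against 54, 11, 20, 428 and 257 of all genes. The authors' deposited table of 48 h called Hsp90ab1 lower, 1 of 7 members with an adjusted p, where 1.23% of 8393 genes were called lower and 0.119% higher. The authors' deposited tables of 96 h and of EBs called 0 of 7 and 0 of 10 members, where 0.048% and 0.0596% of genes were called higher and 0.0961% and 0.0149% lower. Since the members were chosen from these libraries, nothing is read from these counts.

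The phase comparison asks how the genes differ between G2M and G1 cells of the same siRNA group. Dnaja4 was lower in G2M than in G1 siTdg cells, with a log2 difference of -0.64 (standard error 0.12), against -0.12 in siC cells. Dnaja1 was 0.925 to 0.948 times its G1 level in the 4 same-numbered G2M libraries, Hsph1 0.918 to 0.955 times, Dnajb1 0.854 to 0.997 times and Dnaja4 0.445 to 0.916 times. Hspa4 was 1.005 to 1.086 times its G1 level. All 4 pairs were below 1 for 4 of the 10 genes and above 1 for 1, where 19.6% and 27.7% of 12414 genes were below and above in all 4. Dnaja1 and Dnaja4 stayed below 1 in 4 pairs with the libraries scaled by summed RPKM, quantiles or median ratio. Under summed RPKM, 3 pairs were below 1 for Hsph1 and for Dnajb1 and 2 were above 1 for Hspa4.

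The median over the 10 genes of G2M minus G1 was -0.08 in siTdg cells and 0.02 in siC cells, against 0.02 over all genes in each; without 1 library it lay between -0.0929 and -0.0168 in siTdg cells and between -0.16 and 0.0279 in siC cells. In siTdg cells 1 gene had both G2M libraries above both G1 libraries and 3 both below, where 19.7% and 13.6% of all genes did. In siC cells it was 2 above and 2 below, against 23.3% and 17.8%. With limma 0 of 10 members had an adjusted p under 0.05 in either group, against 0.169% (21) of all genes in siTdg cells and 0.12% (15) in siC cells. At an unadjusted p under 0.05 there was 1 member (Dnaja4) in siTdg cells, against 1241 of all genes, and 0 members in siC cells, against 1012. With replicate number as a block in limma, Dnaja4 was called in siTdg cells (adjusted p = 0.0206), and 985 of all genes were called there and 614 in siC cells. The labels do not say what the number marks. The authors' deposited table of siC phases called Hspa8 higher in G2M, at 0.21 (standard error 0.057), 1 of 9 members, where 6.23% of 10828 genes were called higher and 2.24% lower. The authors' deposited table of siTdg phases called 0 of 10 members, where 4.14% of 11613 genes were called higher and 0.878% lower. These calls too come from the libraries the members were chosen on.

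A second phase comparison, of SG2M and G1 cells labelled 0 h, was not among the values used to choose the genes. Earlier results of the series were known at that choice, so its adjusted p is a test with that limit. The libraries behind it were not analysed here. Here 5 of the 10 members passed an adjusted p of 0.05 in the authors' deposited table, 2 higher and 3 lower in SG2M, where 8.87% of 12790 genes were called higher and 2.69% lower. Hspa8 was higher in SG2M, by 0.40 on the log2 scale (standard error 0.067, adjusted p = 1.94e-07 in the authors' deposited table). Dnajb1 was also higher there, by 0.25 (standard error 0.085, adjusted p = 0.0383, the authors' deposited table). Hspa1a was lower in SG2M in the authors' deposited table, at -0.40 (standard error 0.122, adjusted p = 0.0154), and so was Hspa1b, at -0.39 (standard error 0.117, adjusted p = 0.0129). Both rest in part on reads that the pair may share. Dnaja4 differed most in the authors' deposited table, at -1.21 (standard error 0.318, adjusted p = 0.0030).

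The remaining 5 members did not pass that test. Hsp90ab1 stood at 0.07 (adjusted p = 0.605) and Hsp90aa1 at 0.14 (adjusted p = 0.236) in the authors' deposited table. Hspa4 was at 0.13 (adjusted p = 0.272), Hsph1 at 0.04 (adjusted p = 0.797) and Dnaja1 at 0.19 (adjusted p = 0.0769), by the authors' deposited table. Of all 10, 7 were above 0 and 3 below, and the median was 0.10, against 0.02 over all genes with an adjusted p. Dnaja4 was the lowest member in SG2M at 0 h and in G2M of siTdg cells, while Dnajb1 and Dnaja1 stood above 0 at 0 h and below 1 in all 4 sorted pairs. Mean normalised counts of Hspa1a, as a share of those of Hspa8 in the authors' deposited tables, were 0.616% at 0 h, 0.125% in siTdg sorted cells, 0.117% in siC sorted cells and 0.0448% at 48 h, so the pair was most abundant relative to Hspa8 at 0 h. The fold signs at 0 h were set so that the 7 G2/M markers were higher in SG2M.

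**Figure D4:**
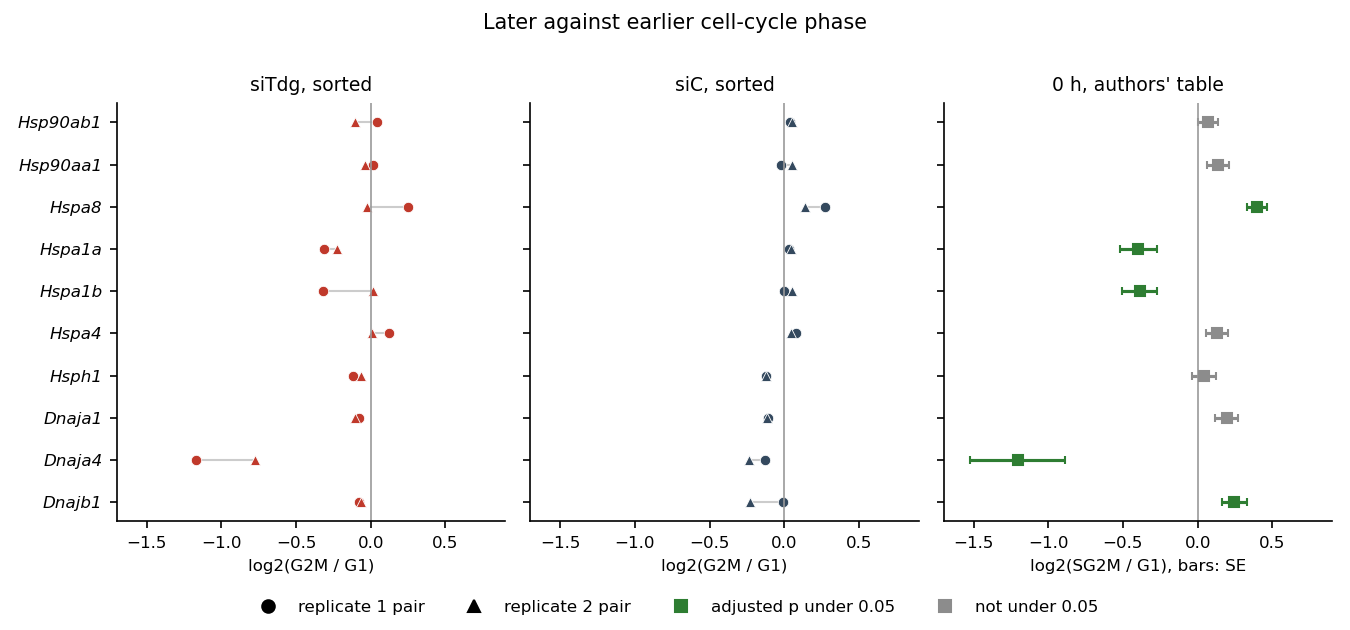
log2 ratio of G2M over G1 RPKM for same-numbered siTdg and siC libraries, and the authors' deposited log2 difference of SG2M minus G1 at 0 h with standard error bars (green where the adjusted p was under 0.05). Dnaja4 lies below 0 in all 4 pairs and at 0 h (-1.21), and Hspa8 is above 0 at 0 h (0.40).

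The partners of the 10 genes were read from lists chosen with earlier results known. Together they held 152 tested genes beside the members. In limma 0 of these had an adjusted p under 0.05 in any of the 7 comparisons. At an unadjusted p under 0.05 there was 1 at 48 h, 9 in the phases of siC cells, 7 in those of siTdg cells and 0 in the other 4. Over all genes tested it was 54 of 12190 at 48 h, and 1012 and 1241 of 12462 in siC and siTdg phases. In the other 4 it was 11 of 12190 at 96 h, 20 of 13300 in EBs, and 428 and 257 of 12462 in G1 and G2M. Of the list genes, the authors' deposited tables called 3 at 48 h, 11 in siC phases, 4 in siTdg phases and 0 at 96 h and in EBs. That was 2.19% of the list genes with an adjusted p at 48 h, 7.38% in siC phases and 2.68% in siTdg phases, where 1.35%, 8.48% and 5.02% of all genes were called in the authors' deposited tables. Among 21 HSP90 co-chaperones, 10 were above 0 and 11 below in siTdg minus siC at 48 h (median -0.0049, all genes -0.014), where Hsp90ab1 was low. Ptges3 (p23, which stabilises the closed HSP90 dimer) had 196.2 and 208.1 RPKM in siTdg cells at 48 h, against 267.0 and 260.4 RPKM in siC cells, and both siTdg libraries were the lower. It fell by 0.38 on the log2 scale in the authors' deposited table (standard error 0.079, adjusted p = 0.000467). Fkbp4 (FKBP52, an immunophilin bound to HSP90) had 367 and 421 RPKM with siTdg and 380.3 and 416 RPKM with siC, and the groups overlapped.

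Among the HSP70 partners, 8 of 15 were above 0 at 48 h and the median was 0.01. St13 (HIP, which holds HSP70 in its ADP state) was 309 and 274 RPKM in siTdg cells and 315 and 285 RPKM in siC cells. Bag1, an exchange factor, was 68.1 and 73.6 RPKM with siTdg and 76.9 and 76.1 RPKM with siC. Of 25 other J proteins tested, 11 were above 0 at 48 h, with a median of -0.02. Dnajc8 had 150.5 and 169.7 RPKM with siTdg and 143.8 and 157.8 RPKM with siC.

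Most ER chaperones were below 0 in siTdg minus siC at 48 h, and all tested were above 0 at 96 h. Each count rests on 2 library pairs and on the deposited scaling alone. At 48 h 13 of 16 were below 0 (median -0.05), where 46.2% of all genes were above 0. At 96 h 16 of 16 were above 0 (median 0.09), where 51.3% of all genes were. Being above 0 at 96 h was not particular to this list. Of the HSP90 co-chaperones 17 of 21 were above 0 then, and of the small heat shock proteins 2 of 7. At 48 h both siTdg libraries lay below both siC libraries for 3 of 16 and above them for 1, against 10.1% and 8.71% of all genes. At 96 h it was 0 below and 1 above, against 4.46% and 4.56%. Hyou1, the HSP110 of the ER, had 48.2 and 48.8 RPKM in siTdg cells at 48 h, against 67.5 and 63.2 RPKM in siC cells. It fell by 0.43 in the authors' deposited table (standard error 0.083, adjusted p = 0.000151). In G2M minus G1, 14 of 16 ER chaperones were below 0 in siTdg cells (median -0.13) and 14 in siC cells (median -0.16). Hspa5 (BiP) was lower in G2M, at -0.38 in siTdg cells (adjusted p = 0.0125) and -0.37 in siC cells (adjusted p = 1.16e-08), from the authors' deposited tables.

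Of the small heat shock proteins 6 of 7 were below 0 in G2M minus G1 in each siRNA group, where 54.7% of all genes were above 0 in siTdg cells and 55.0% in siC cells, with medians of -0.37 in siTdg cells and -0.29 in siC cells. In siTdg minus siC the same list had 6 of 7 above 0 in G1 (median 0.13) and 7 of 7 in G2M (median 0.20), where 50.2% and 54.6% of all genes were. Both siTdg libraries were above both siC libraries for 3 of 7 in each phase, where 11.6% and 14.5% of all genes had that order. They were below both for 0, against 14.1% and 10.5%. Only 4 genes of the list had an adjusted p in the authors' deposited tables of sorted cells. Hspb8 was lower in G2M than in G1 in the authors' deposited tables, by 0.53 in siTdg cells (adjusted p = 0.000899) and 0.43 in siC cells (adjusted p = 0.000147). All 28 proteasome genes tested were above 0 in siTdg minus siC at 96 h (median 0.12) and in G1 (median 0.16). So were 15 of 15 TRiC and prefoldin genes at 96 h (median 0.14). Of all genes 51.3% were above 0 at 96 h and 50.2% in G1. Each of these list counts rests on 2 library pairs and on the deposited scaling alone. The summed RPKM was higher with siTdg in both replicates of both settings. In replicate 2 it was 611591 against 573998 at 96 h and 502770 against 440799 in G1. List counts under other scalings were not made. Both siTdg libraries were above both siC libraries for 1 of 28 proteasome genes at 96 h and 0 in G1. For TRiC and prefoldin at 96 h it was 0 of 15. Of all genes 4.56% had that order at 96 h and 11.6% in G1. The HSF list had 2 of 4 above 0 at 48 h. At 0 h the authors' deposited table called 4 of 21 HSP90 co-chaperones higher in SG2M and 0 lower, with Ptges3 at 0.28 (adjusted p = 0.00446) and Fkbp4 at 0.24 (adjusted p = 0.0126). It called 0 of 15 HSP70 partners, 2 of 25 other J proteins higher (Dnajc8 at 0.28, adjusted p = 0.00765) and 3 of 16 ER chaperones lower, by the authors' deposited values. Also called higher were 3 of 28 proteasome genes, 2 of 14 TRiC and prefoldin genes and 2 of 13 mitochondrial chaperones. Of 9 other heat-inducible genes the authors' deposited table called 1 higher (Ubb at 0.47, adjusted p = 5.51e-10) and 1 lower. Of all genes 8.87% were called higher at 0 h and 2.69% lower, so the J protein and proteasome counts were near that share. The counts of TRiC and prefoldin and of mitochondrial chaperones rest on 2 genes each.

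Genes were ranked by how closely their 10 log2 ratios of siTdg to siC in same-numbered libraries followed those of Hsp90ab1, over 6059 genes that averaged 5 RPKM or more in each table. The 5 most alike were Nrbp1 (Pearson r 0.973), Xrn2 (0.967), Cox7a2l (0.948), Hyou1 (0.944) and Pttg1 (0.939). The points share the library pairs and their depth, and genes ranked this way are a description with no test. Nrbp1, a pseudokinase gene, had 26.8 and 29.9 RPKM in siTdg cells at 48 h, against 47.5 and 47.0 RPKM in siC cells. Xrn2, a nuclear exoribonuclease gene, had 42.8 and 50.1 RPKM with siTdg, against 69.0 and 72.8 RPKM with siC. In both, as in Hsp90ab1, the siTdg libraries lay below the siC ones at 48 h. For Hspa1b the 5 were Fam89b, Chchd5, Atg101, Zfyve21 and 3110082I17Rik, with r of 0.925 to 0.957.

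EBs held less Hsp90aa1, Hsph1, Hspa4, Hsp90ab1, Hspa8 and Dnaja1 than ESCs. For each gene the median over the 4 EB libraries was set over that of the 8 unsorted ESC libraries; these tables were scaled separately by the authors. Hsp90aa1 was 0.086 times, Hsph1 0.209 times, Hspa4 0.274 times, Hsp90ab1 0.375 times, Hspa8 0.514 times and Dnaja1 0.586 times its ESC level. Hspa1a, Hspa1b and Dnajb1 were 0.798, 0.871 and 0.904 times, and Dnaja4 was 1.85 times. Leaving out 1 EB library, a setting added after the data were seen, moved the ratio of Hspa1a to between 0.427 and 1.17, that of Hspa1b to between 0.392 and 1.35, that of Dnajb1 to between 0.531 and 1.28 and that of Hspa8 to between 0.323 and 0.705, so the first 3 took either direction. The ratios of the other 6 stayed on their side of 1, and Dnaja4 lay between 1.79 and 1.91. As shares of the summed RPKM the values were 0.102 for Hsp90aa1 and 1.94 for Dnaja4, with Hspa1a at 1.02 and Hspa1b at 1.06. On that scale Hspa1a lay between 0.254 and 1.79, Hspa1b between 0.229 and 1.90, Hsp90aa1 between 0.0500 and 0.154, Hspa4 between 0.129 and 0.457, Hsph1 between 0.115 and 0.315, Dnaja1 between 0.364 and 0.837 and Dnaja4 between 1.09 and 2.78 without 1 EB library. All 10 genes together took 0.696% to 0.879% of the reads in EBs and 2.09% to 2.58% in ESCs.

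The 2 replicate numbers of EBs held different cells by their markers. The 4 fibroblast markers, all detected, summed to 4470.2 and 361 RPKM in siTdg EBs 1 and 2 and to 3339.7 and 458 RPKM in siC EBs 1 and 2. The 4 erythroid markers summed to 7.0 and 488 RPKM in siTdg EBs and to 2.67 and 242 RPKM in siC EBs. The summed RPKM over all genes was 371629 and 816996 in siTdg EBs 1 and 2 and 340297 and 873442 in siC EBs 1 and 2. In RPKM Hspa8 and Dnajb1 were higher in replicate 2, but as shares of the summed RPKM replicate 2 was 1.16 and 0.946 times replicate 1 for Hspa8 and 1.09 and 1.22 times for Dnajb1 (siTdg and siC). Hspa1a was lower in replicate 2 on both scales, 0.0918 and 0.142 times replicate 1 as a share, and in RPKM stood at 1.57 and 0.32 RPKM in siTdg EBs and 1.15 and 0.42 RPKM in siC EBs. Hspa1b was 1.83 and 0.43 RPKM in siTdg EBs and 1.49 and 0.42 RPKM in siC EBs. The part of cell makeup in the EB values was not tested. In EBs 8 of the 10 genes were higher with siTdg in both pairs, where 32.6% of 13300 genes were, and 0 were lower in both, where 21.8% of all genes were. With the libraries scaled by summed RPKM 6 were, by median ratio 8 and by quantiles 4.

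Sorted ESCs held more Hspa1a, Hspa1b and Hsph1 than unsorted ones. As a share of summed RPKM, the median of the 8 sorted libraries over that of the 8 unsorted ones was 3.93 for Hspa1b, 3.40 for Hspa1a, 1.81 for Hsph1, 1.69 for Dnaja4, 1.44 for Hspa4 and 1.35 for Dnaja1. It was between 1.05 and 1.13 for Hspa8, Hsp90aa1, Dnajb1 and Hsp90ab1. The 2 sets did not overlap for Hsp90ab1, Hspa1a, Hspa1b, Hspa4, Hsph1 and Dnaja1, 6 of 10 with the sorted libraries the higher, where 13.9% of 11385 genes had that order, and 0 of 10 the lower, where 5.69% did. Both sets went into the choice of the members, so nothing is read from this count. The sets were tabulated separately, with equal gene lengths for 13803 of 17522 genes and for all members but Dnaja4, whose length differed by a factor of 1.04. Beside these values the 11 immediate early genes summed to 227 to 331 ppm of summed RPKM in sorted ESCs and 149.6 to 214 ppm in unsorted ones. Unrelated lists were apart too. The G1/S markers summed to 947 to 1162 ppm in sorted and 599 to 751 ppm in unsorted ESCs. The cardiac markers summed to 18.5 to 24.6 ppm and 5.66 to 18.3 ppm. The p53 targets overlapped, at 1092 to 1621 ppm in sorted and 1215 to 1983 ppm in unsorted ESCs. The 7 genes of the integrated stress response summed to 1499.9 to 1700.4 ppm in sorted and 1289 to 1816 ppm in unsorted ESCs. The part of sorting, handling or annotation in the difference was not tested.

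**Figure D5:**
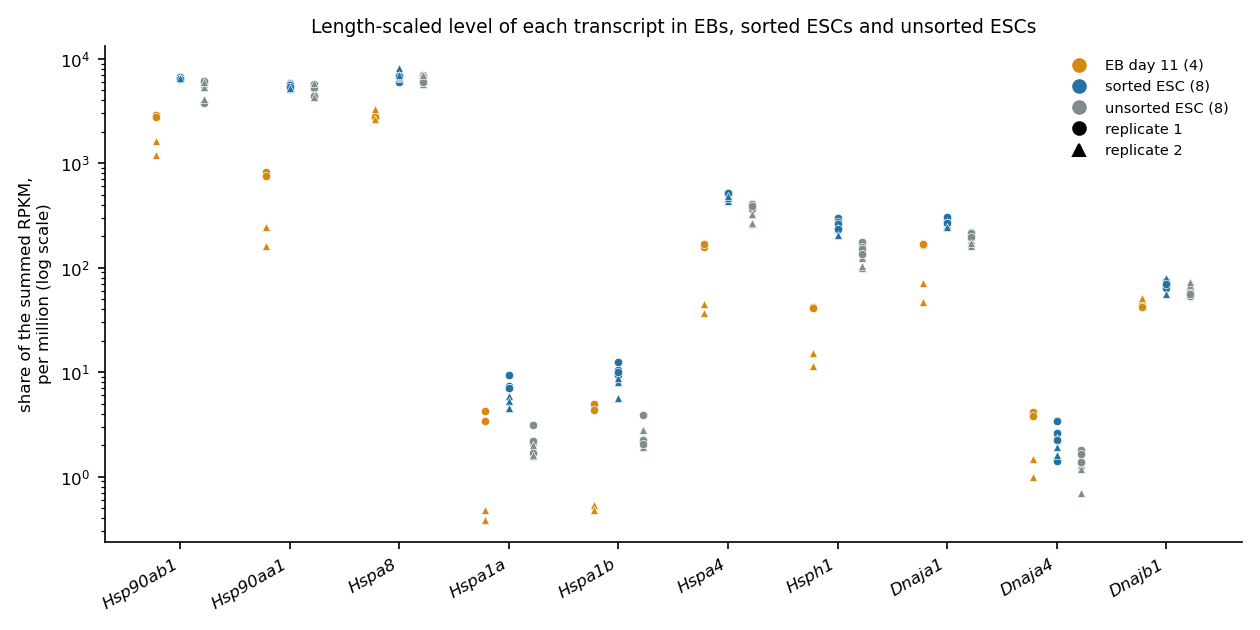
Share of the summed RPKM (ppm, a log axis), of each of the 10 genes in the 4 EB, 8 sorted ESC and 8 unsorted ESC libraries. Hsp90aa1 is lowest in EBs (497 ppm at the median, against 4881 ppm in unsorted ESCs), and Hspa1a and Hspa1b are higher in sorted than in unsorted ESCs.

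Per kilobase, the order of the genes in unsorted ESCs was Hspa8 (median 6471 ppm of summed RPKM), Hsp90ab1 (5775) and Hsp90aa1 (4881), then Hspa4 (345), Dnaja1 (197), Hsph1 (131) and Dnajb1 (63.5), and last Hspa1b (2.31), Hspa1a (1.90) and Dnaja4 (1.36). The ranges of neighbours overlapped among the first 3, between Dnaja1 and Hsph1 and among the last 3. In EBs Hspa8 (2805) and Hsp90ab1 (2206) were again first, Hsp90aa1 (497) followed, and Dnaja1 (118) stood above Hspa4 (101).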

How the data were processed

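RNA of 20 libraries in 10 groups of 2 was analysed; the other samples of the series, the peak lists among them, were not analysed here. TopHat, DESeq2, Bowtie, DiffBind, mm9 and dm3 are named in the submitters' processing notes; the counting tool and its strand setting, and the annotation, are not given in the sources used. The authors deposited RPKM in 1 table per pair of groups, each scaled separately, with a signal per gene that the file headers name as a base mean, here called mean normalised counts. They also deposited log2 fold changes with standard errors, p-values and adjusted p-values, which have the column names of DESeq2 per the file headers. The authors' signs at 48 h, 96 h and 0 h were turned, so that siTdg or the later phase stands first; that of 0 h was set from G2/M markers. At 0 h 4 RPKM columns match no sample and were not used.

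RPKM was turned back into reads through the ratio of mean normalised count to mean RPKM. Of the values, 100.0% came out whole within 0.01 reads. RPKM thus carries the library factor of the normalised counts and not the total of reads. The 2 tables of sorted cells gave equal gene lengths for 19249 of 19249 genes, which allowed siTdg and siC to be compared within a phase. No 2 libraries agreed within sampling noise: the lowest chi-square per degree of freedom was 4.67. Depth was 20818174 to 41433232 reads per library, so counting error is small for the abundant members and not for Hspa1a, Hspa1b and Dnaja4.

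The test was that of limma 3.58.1 (R 4.3.3), on RPKM with 0.5 added and on the log2 scale, which understates folds of low genes. Genes averaging under 0.5 RPKM in a model were left out. The 8 unsorted ESC, 8 sorted and 4 EB libraries had a model each, with eBayes and a trend, two-sided, and Benjamini-Hochberg adjustment over all genes; calls are at an adjusted p under 0.05. The scripts were tested on simulated data. Replicate numbers were not used to pair samples in the model, since the labels do not say what a number marks. The error of the model thus holds any difference between numbers, and a lack of calls does not show equal levels. The word paired stands in the authors' table names, without an account of what it refers to. Alternatives were other pseudocounts, no filter, quantile scaling, limma's voom on the recovered reads with TMM factors, a replicate block and leaving out each library. Promoter windows and motifs came from RefSeq on GRCm38.p6. Figures were drawn with matplotlib 3.10.9 in Python 3.11.15, with pandas 2.3.3 and numpy 2.4.6.

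The members and the lists were chosen with earlier results of these data known. Named beside the members were Tdg, the 2 genes of each list with the highest mean RPKM, list genes called by the authors, and the 5 genes most like Hsp90ab1 and Hspa1b in their 10 log2 ratios. Not every gene the rule names is printed. Hspa1a and Hspa1b, and members with pseudogenes, may share reads.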

Additional observations from a re-analysis of the deposited data

Results flagged for a closer look

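For 5 effects every same-numbered pair of one setting moved one way and every pair of the other the opposite way. The share of all genes that do so was not counted, so nothing is read from the number 5. Some of these log2 ratios lay close to 0, such as 0.0042 for Dnaja1 and -0.0094 for Dnajb1 at 96 h. In limma 0 of 12190 genes had an adjusted p under 0.05 for a difference between the times, and 0 of 12462 for a difference between the phases or siRNAs; 15 and 36 had an unadjusted p under 0.05, among the members only Dnaja4. Since the members were chosen from these libraries, these differences are values with no test.

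The siTdg minus siC difference of Hspa1b was higher at 96 h than at 48 h by 0.52 (standard error 0.45), with pairs of 0.15 and 0.13 at 96 h and -0.90 and -0.26 at 48 h. For Dnaja1 the same difference between times was 0.10 (standard error 0.23), with pairs of 0.12 and 0.00 at 96 h and -0.01 and -0.07 at 48 h. For Dnajb1 it was -0.079 (standard error 0.44), with pairs of -0.03 and -0.01 at 96 h and 0.04 and 0.08 at 48 h. The siTdg effect on Dnaja4 was lower in G2M than in G1 by -0.52 (standard error 0.17), with pairs of -0.64 and -0.20 in G2M and 0.40 and 0.33 in G1. The G2M minus G1 difference of Hspa1a in siTdg cells minus that in siC cells was -0.26 (standard error 0.35), with pairs of -0.31 and -0.23 in siTdg cells and 0.03 and 0.04 in siC cells. Groups of 2 libraries are too small for a check of outlying samples.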

How the results depend on the processing

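No member was called under any alternative but 1. With a replicate block, Dnaja4 was called lower in G2M than in G1 siTdg cells (adjusted p = 0.021 in limma), 1 member in place of 0; its log2 difference ran from -1.0 to -0.48 over the alternatives that keep every library, with adjusted p from 0.0206 to 0.896. The block gave 985 calls over all genes for siTdg phases, 614 for siC phases, 150 in EBs, 2 in G1 and 3 in G2M and 0 at 48 h and 96 h, against 21, 15, 0, 1, 1, 0 and 0 without it. Same-numbered libraries deviated together in all 7 comparisons (correlations of 0.59 to 0.95). The library pairs most alike were same-numbered siTdg and siC ones, at a chi-square per degree of freedom of 4.67 to 13.1. The 2 libraries of a group gave 20.2 to 817. Same-numbered libraries thus shared something that the labels do not name. Without the filter on low values there were 4 calls at 96 h, 6 in G1 and 4 in G2M. The members' median moved under quantile scaling, to 0.013 at 96 h, 0.15 in EBs, 0.018 in G2M, 0.0858 in G1, 0.0188 at 48 h and -0.027 in siC phases, and with voom to 0.16 in EBs and -0.12 in siTdg phases. Leaving out 1 library gave medians of -0.0890 to 0.0504 at 48 h, -0.13 to 0.16 at 96 h, 0.0143 to 0.47 in EBs, 0.0429 to 0.22 in G1, 0.0321 to 0.0935 in G2M, -0.16 to 0.0279 in siC phases and -0.0929 to -0.0168 in siTdg phases; the lone library of a group was then assumed to vary like the others. The 2-unit element was in 5 members, against 0 for the 3-unit one. Of 70 member values, 2 moved by more than the spread between replicates with a pseudocount of 0.1 and 2 with 1, 23 under quantile scaling (12 changed sign) and 11 with voom (2 changed sign); of 280 without 1 library, 140 moved and 63 changed sign. The cause was not tested. Hsp90ab1 at 48 h stayed at -0.54 to -0.53, and at -0.62 to -0.46 without 1 library. Distances to peaks could not be computed, as the peaks are on another build, and were not run. Depth limits Hspa1a, Hspa1b and Dnaja4 most.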
